A study of Mus musculus with 4 samples.

Results

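The genes described here are 10 genes that lymphoid progenitors switch on as they approach the B cell fate: Il7r, Rag1, Rag2, Dntt, Vpreb1, Vpreb3, Igll1, Cd79a, Blnk and Jchain (Igj in older naming). They were taken as a list of symbols and found through the RefSeq accession that the array files print for each probe. All 10 were among the 20280 gene symbols named on the array, on 12 probes. The samples were lymphoid-primed multipotent progenitors (LMPP) from mouse bone marrow, cells at an early branch of blood formation with both lymphoid and myeloid potential. The mice carried a green fluorescent protein (GFP) knockin that reports IRF8, a transcription factor of dendritic cells, monocytes and B cells, so both groups had the reporter allele. Magnetic enrichment was followed by flow sorting of cells that had Sca-1, CD117, CD34 and CD135 on their surface and lacked lineage markers, CD150 and IL-7R. The study compared IRF8-GFP negative with IRF8-GFP positive LMPP, with 2 one-colour arrays in each group, numbered exp 1 and exp 2 in both. The labels give no age, sex or number of animals, and whether exp 1 and exp 2 were separate animals is not stated, so the spread behind the p-values is that between these arrays and may be technical.

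In the mouse, the interleukin-7 receptor carries the main survival and growth signal of early B cell progenitors. The recombinase made of Rag1 and Rag2 cuts the antigen receptor genes, terminal transferase (Dntt) adds bases at the joins, and the first heavy chain is then shown at the surface with a surrogate light chain of Vpreb and Igll1 proteins and the signalling chains Cd79a and Cd79b. LMPP are known to transcribe some of these genes before a lineage is fixed, which is called lymphoid priming.

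For 4 of the genes the promoter is printed, from 250 bases before to 50 bases after the start, 5′ to 3′ on the gene's own strand, as RefSeq gives it for GRCm38.p6. Jchain and Il7r had the largest differences between the groups, and Blnk and Vpreb3 are the members whose window holds an octamer, an element known from immunoglobulin promoters. Capitals mark the octamer (ATTTGCAT) and every match to the E-box CANNTG, the kind of site bound by E proteins such as Tcf3. Overlapping matches run together. The windows lie at chr5:88527848-88528147 (minus strand) for Jchain, chr15:9529827-9530126 (minus strand) for Il7r, chr19:40994172-40994471 (minus strand) for Blnk and chr10:75948050-75948349 (plus strand) for Vpreb3.
Jchain: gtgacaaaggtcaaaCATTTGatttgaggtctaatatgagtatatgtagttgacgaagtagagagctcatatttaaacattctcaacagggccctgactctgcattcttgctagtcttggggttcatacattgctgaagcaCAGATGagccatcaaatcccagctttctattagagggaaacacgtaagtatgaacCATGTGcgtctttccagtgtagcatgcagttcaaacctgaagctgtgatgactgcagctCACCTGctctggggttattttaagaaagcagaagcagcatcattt
Il7r: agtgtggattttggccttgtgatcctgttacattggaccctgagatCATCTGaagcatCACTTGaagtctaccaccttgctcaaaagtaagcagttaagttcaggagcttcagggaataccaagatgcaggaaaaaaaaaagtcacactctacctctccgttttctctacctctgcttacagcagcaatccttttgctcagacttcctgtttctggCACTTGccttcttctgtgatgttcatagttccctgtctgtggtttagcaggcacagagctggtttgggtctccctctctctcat
Blnk: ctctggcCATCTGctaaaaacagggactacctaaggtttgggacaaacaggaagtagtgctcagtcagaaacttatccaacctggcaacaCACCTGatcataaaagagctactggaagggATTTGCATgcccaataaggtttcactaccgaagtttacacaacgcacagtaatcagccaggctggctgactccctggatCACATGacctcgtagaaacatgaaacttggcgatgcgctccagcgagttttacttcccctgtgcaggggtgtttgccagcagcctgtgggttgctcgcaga
Vpreb3: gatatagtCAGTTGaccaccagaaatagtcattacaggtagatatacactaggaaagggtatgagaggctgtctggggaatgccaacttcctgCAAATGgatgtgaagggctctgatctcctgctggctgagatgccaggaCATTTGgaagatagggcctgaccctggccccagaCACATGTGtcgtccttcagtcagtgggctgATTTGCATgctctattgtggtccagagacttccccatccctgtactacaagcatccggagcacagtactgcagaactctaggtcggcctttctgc

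The octamer of Blnk lay at -130 to -123 from the start and that of Vpreb3 at -45 to -38. Both strands of all 32851 promoter windows of this length in RefSeq were searched, and 1.74% held the octamer. An E-box was found in the windows of all 10 genes, against 72.3% of all windows. TGGGAA, a core bound by Ikaros, was found in Rag1 alone among the 10 and in 25.6% of all windows. None of the 10 windows held a spaced pair of IRF half-sites (GAAANNGAAA, in 3.44% of all windows), an Ets-IRF composite (GGAANNGAAA, in 2.72%) or an inverted repeat bound by early B cell factor (TCCCNNGGGA, in 0.904%), which says only that these letters are not in these windows.

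Of the 10 genes, 8 were higher in IRF8-GFP positive LMPP and 0 lower, while Cd79a did not pass the test and Igll1, in the background on all arrays, was not tested. The test was limma with Benjamini-Hochberg adjustment over 22362 genes and unnamed transcripts, with an adjusted p of 0.05 as the threshold. By this test 38.5% of all genes were called higher, 21.4% lower and 59.9% in either direction, so a call alone is common on these arrays. Under the main scaling, to a percentile of each array, a call with an increase of at least 2-fold was rarer, at 2.33% of all genes. There 6 of the 10 genes had one: Jchain, Il7r, Vpreb3, Blnk, Rag2 and Dntt. Dntt fell below 2-fold with quantile normalization (log2 difference 0.72), the deposited values (0.72) and spike-in scaling (0.81). It did so too with cyclic loess (0.65) and scaling on probes above background (0.88), but not with normexp (1.08) or centring on the tested genes (1.11). Vpreb3 fell below 2-fold with normexp (0.80). Vpreb3 and Cd79a passed the filter on dim probes only through the positive group. Vpreb3 therefore had to differ upward if at all. For Cd79a, with 1 negative array above background, the filter favoured an upward difference without fixing it. The other 7 tested genes were well above background on all 4 arrays, and these 7 were all called higher. When the fit was limited to such probes, 9092 of 20073 genes were called higher. The groups did not overlap, with both positive arrays higher, in the 9 tested genes, as they did in 52.4% of all genes.

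**Figure D1:**
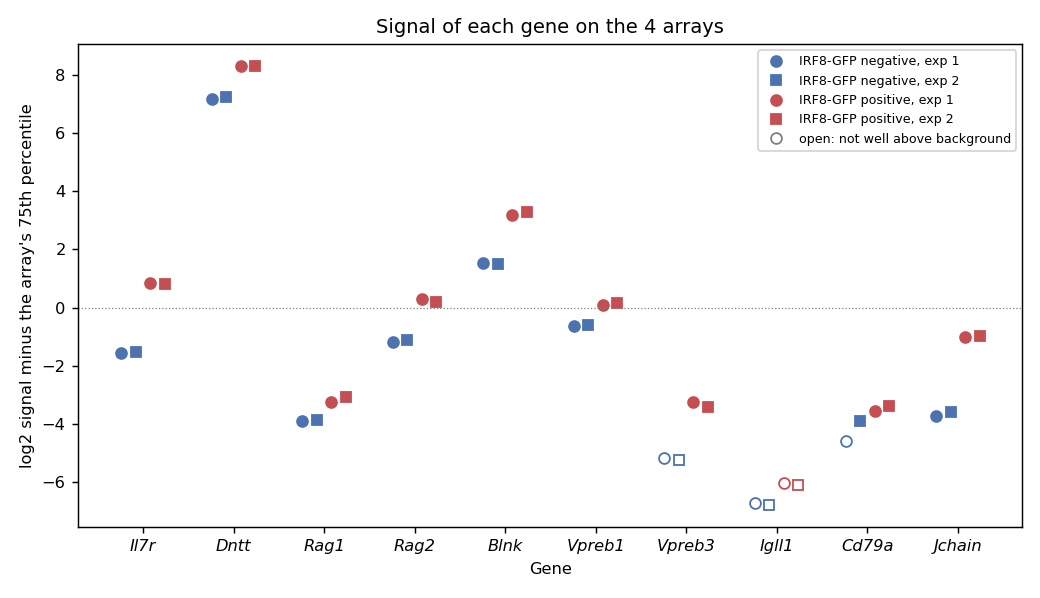
Signal of the 10 genes on each array as log2 relative to the array's 75th percentile, with IRF8-GFP negative LMPP in blue, IRF8-GFP positive LMPP in red, exp 1 as circles and exp 2 as squares. Open symbols were not well above background: both negative arrays for Vpreb3, 1 negative array for Cd79a and all 4 arrays for Igll1, whose symbols show no measured level. For the 9 tested genes the red symbols lie above the blue ones.

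Signals are given as log2 relative to the array's own 75th percentile, so a gene above 0 is brighter than most probes of its array. They compare arrays for a gene, and not genes with each other. The sort was visible in Irf8 itself, whose log2 difference (positive minus negative, as throughout) was 3.55 (SE 0.06, limma adjusted p = 0.000802). The share of spots well above background was 56.5% and 56.8% in the negative group and 49.96% and 51.03% in the positive group. The median difference of all tested genes was 0.16, and it was 0.04 with quantile normalization and -0.14 when the arrays were scaled on spike-in control probes. The share of higher among all calls was 64.3%, 52.6% and 28.9% in turn, and it ranged from 28.9% to 76.9% over the alternatives. With spike-in scaling 14.8% of all genes were called higher, and the same 8 of the 10 genes were among them. Leaving out negative replicate 1 or negative replicate 2 lowered the calls over all genes from 13390 to 7612 or 7723, and the 8 genes passed without either. With 2 arrays against 2 an exact permutation test cannot go below p = 0.333, so every p-value here rests on the model's shared estimate of spread. In such bulk samples a larger share of cells with a transcript and more transcript per cell cannot be told apart.

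The receptor gene Il7r was higher in the positive group although both groups were sorted without the surface protein. Its log2 signal was -1.57 and -1.54 on the negative arrays and 0.86 and 0.83 on the positive arrays. The groups did not overlap and were at least 2.36 apart. The difference was 2.40 (SE 0.06) or 5.26-fold (limma adjusted p = 0.000835), and Il7r ranked 65 from the top of all genes tested. Over 8 treatments of the signals (the 75th percentile and 7 other scalings or corrections) it lay between 2.06 and 2.40.

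Other genes of the IL-7 receptor pathway did not move with it as a group. Of the 13 others in a list of 14, all tested, 3 were higher, 6 were lower and 4 did not pass, and their median difference was -0.19 against 0.16 for all genes. Il2rg, the common gamma chain that pairs with the product of Il7r, fell by 0.90 on the log2 scale (SE 0.06, limma adjusted p = 0.0019). Jak3, the kinase bound to that chain, fell by 0.57 (SE 0.06, adjusted p = 0.00305). Jak1, the kinase bound to the Il7r chain, fell by 0.21 (SE 0.05, adjusted p = 0.0324). Crlf2, which pairs with the Il7r chain in the receptor for thymic stromal lymphopoietin, had a difference of -0.19 (adjusted p = 0.0701).

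Downstream of the receptor, the survival gene Bcl2 rose by 0.91 (SE 0.06, limma adjusted p = 0.00188) and was called higher under all 8 treatments. Ccnd3 (0.58), which encodes cyclin D3, was called higher under 5 treatments and not with quantile normalization. Pik3cd (0.44), a catalytic chain of PI3 kinase, was called higher under 3. The feedback inhibitors Cish (-1.07, SE 0.09, adjusted p = 0.00236) and Socs1 (-0.29, SE 0.06, adjusted p = 0.0161) fell. Mycn, a growth-promoting transcription factor, fell by 2.15 (SE 0.08, adjusted p = 0.00115). The 6 genes of the list that fell were called lower under all 8 treatments. Without negative replicate 1 or 2, however, Jak1 (adjusted p = 0.139 and 0.149) and Socs1 (0.0969 and 0.0699) did not pass, and without positive replicate 1 or 2 Jak1 did not either (0.103 and 0.0765). The signal transducers Stat5a (0.03) and Stat5b (0.11) did not pass and turned negative under other scalings, as low as -0.29 and -0.25, and the survival gene Mcl1 had -0.04 on its brighter probe and 0.35 (adjusted p = 0.0132 in the fit of single probes) on another.

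Dntt was among the brightest probes, with processed signals of 62781 and 81220 for negative and 100811 and 131336 for positive LMPP. No spot of any array was flagged as saturated. Its log2 signal was 7.16 and 7.23 in the negative group and 8.31 on both positive arrays, without overlap. The difference was 1.11 (SE 0.06) or 2.17-fold (limma adjusted p = 0.00155). Among the 682 tested genes with a mean log2 signal above 7, a limit chosen after seeing the data, the median difference was 0.37 with quartiles of 0.32 and 0.44. Of these bright genes 3 reached the difference of Dntt, Dntt included. Removing the trend with brightness by cyclic loess gave 0.65, the lowest value for Dntt under any alternative, and the call held there.

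**Figure D2:**
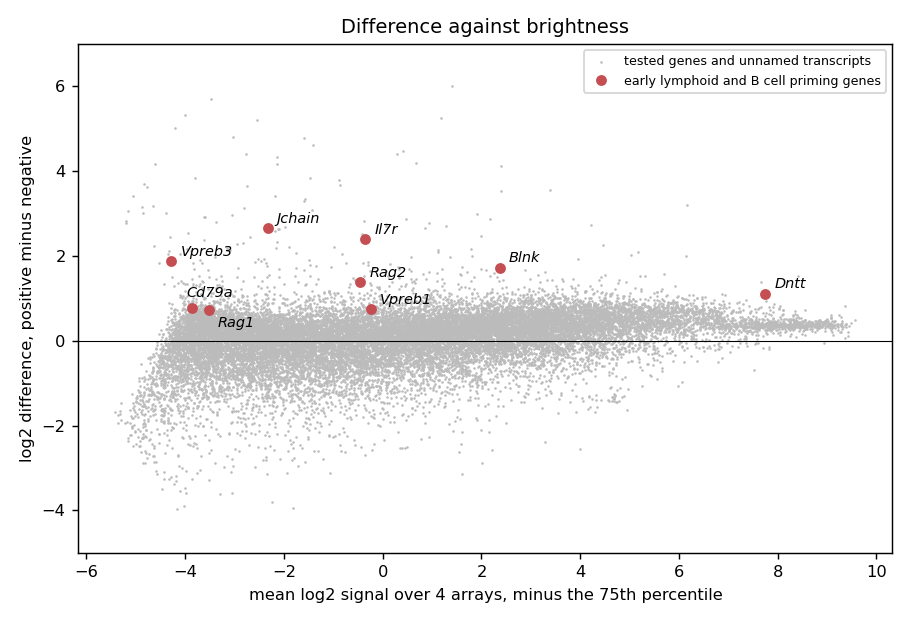
Log2 difference (positive minus negative) of each tested gene or unnamed transcript against its mean log2 signal over the 4 arrays relative to the 75th percentile, with the 9 tested genes of the list in red. Dntt lies above a narrow band of bright genes around 0.37, whereas Rag1 and Cd79a lie within the cloud of dim genes.

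Rag2 had a pair of kept probes, of which only the brighter was measured on all arrays. That probe, which represents the gene, had log2 signals of -1.17 and -1.11 on the negative arrays and 0.30 and 0.18 on the positive arrays, without overlap. Its difference was 1.38 (SE 0.07) or 2.60-fold (limma adjusted p = 0.00152). The other probe was spotted 10 times on each array. A share of 0.2 and 0.6 of its spots was well above background on the negative arrays, and 0.9 and 1 on the positive arrays. It was therefore kept only through the positive group, a filter that favours an upward difference without fixing it. Its fitted difference was 1.10 (SE 0.09, limma adjusted p = 0.00304 in the fit of single probes), while spots within an array scattered with an SD of 0.19 to 0.33.

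Rag1, the partner of Rag2 in the recombinase, was dim on all arrays. Its measurable probe gave processed signals of 29.2 and 37.4 for negative and 33.6 and 48.8 for positive LMPP, which overlap before scaling. After scaling, the log2 signals were -3.91 and -3.86 against -3.24 and -3.08, without overlap. The difference was 0.72 (SE 0.08) or 1.65-fold (limma adjusted p = 0.00387). Beside it stand the 23130 probes that were well above background on no array, whose median difference was 0.69 (quartiles 0.40 and 0.72) under this scaling. With spike-in scaling these features had a median of 0.39 and Rag1 had 0.41, and with quantile normalization they had 0.03 and Rag1 had 0.76. The part of that background shift in the value of Rag1 was not tested. A further Rag1 probe stayed below that limit on all 4 arrays.

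The other genes of recombination and end joining moved in both directions. Of 13 others in a list of 16, all tested, 6 were higher, 2 lower and 5 did not pass, with a median of 0.16, the same as for all genes. Of the 6, Hmgb1 alone was called higher under all 8 treatments: this DNA-bending protein, which helps the recombinase to bind, rose by 0.79 (SE 0.06, limma adjusted p = 0.00219). It has 7 probes, of which 3 had differences below 0, the lowest -0.22. Hmgb2, a related protein, rose by 0.80 (SE 0.08, adjusted p = 0.00295) and was called under 7 treatments. The Ku subunits moved apart, with Xrcc6 (Ku70) at 0.52 (SE 0.05, adjusted p = 0.00343) and Xrcc5 (Ku80) at -0.65 (SE 0.06, adjusted p = 0.00281). The call of Xrcc6 held under 5 treatments and that of Xrcc5 under all 8.

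Dclre1c, which encodes the hairpin-opening nuclease Artemis, fell by 0.68 (SE 0.08, limma adjusted p = 0.00449). Poll (0.46), Prkdc (0.33) and Nhej1 (0.25), a gap-filling polymerase, the DNA-dependent kinase and a ligation cofactor, were called higher under 4, 5 and 2 of the treatments. Nhej1 turned to -0.06 with spike-in scaling, and none of these 3 passed without negative replicate 1 or without negative replicate 2. Xrcc4 (-0.22), Lig4 (0.14), Polm (-0.31), Atm (0.16) and Paxx (-0.16) did not pass. A further Paxx probe had 0.41 (adjusted p = 0.00743 in the fit of single probes), so no direction is given for Paxx.

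Of the surrogate light chain genes, Vpreb1 was measured on all arrays. Its log2 signal was -0.62 and -0.60 in the negative group and 0.10 and 0.17 in the positive group. The groups did not overlap after scaling, while the processed signals before scaling, 285 and 359 against 340 and 465, did. The difference was 0.74 (SE 0.06) or 1.67-fold (limma adjusted p = 0.00232). With spike-in scaling it was 0.43, the lowest value over the 8 treatments, and it passed.

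Vpreb3, a relative of Vpreb1 that binds newly made immunoglobulin chains in the cell, was not well above background on either negative array. Its processed signals were 12.1 and 14.2 there and 33.3 and 38.7 on the positive arrays. The log2 signals were -5.18 and -5.26 against -3.26 and -3.42, so the positive arrays lay clearly above. Since the negative values are only bounds, the increase was at least 2.57-fold under the main scaling. This bound is the positive mean against the lowest signal well above background on each negative array. It was not recomputed under other treatments and is no limit for them. The fitted difference was 1.88 (SE 0.08, limma adjusted p = 0.00141). It was 1.57 with spike-in scaling, 0.80 with normexp background correction and 2.02 with cyclic loess. Probes well above background on no array had a median difference of 0.69 under the main scaling. The part of that shift in the value and the bound of Vpreb3 was not tested.

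Igll1, the partner of Vpreb1 in the surrogate light chain, stayed in the background on all 4 arrays. Its processed signals were 4.16 and 4.92 for negative and 4.81 and 6.10 for positive LMPP, and no direction is given for it. The lowest signals well above background ranged from 17.2 to 25.7 over the 4 arrays. Vpreb2, the near-identical copy of Vpreb1, had a difference of 0.04 (SE 0.29, limma adjusted p = 0.921), and cross-hybridization between these copies was not tested.

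The adaptor gene Blnk rose in the positive group. Its log2 signal was 1.53 and 1.49 on the negative arrays and 3.19 and 3.27 on the positive arrays. The groups did not overlap and lay at least 1.66 apart. The difference was 1.72 (SE 0.06) or 3.29-fold (limma adjusted p = 0.0012). Over the 8 treatments it ranged from 1.41 to 1.72.

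Cd79a, the signalling chain that Blnk acts below, did not pass. Its log2 signal was -4.59 and -3.91 on the negative arrays, the first of them not well above background, and -3.56 and -3.38 on the positive arrays. The groups did not overlap after scaling, while the processed signals, 18.2 and 36.1 against 26.9 and 39.8, did, and the negative arrays differed by nearly as much from each other as the groups did. The difference was 0.78 (SE 0.25, limma adjusted p = 0.0582). Without negative replicate 1 it was 0.44 (adjusted p = 0.0772), and without negative replicate 2 it was 1.12 (adjusted p = 0.0278). It passed with the replicate number as a block (adjusted p = 0.0325), and the background shift of 0.69 given for Rag1 is of about the same size. Its partner Cd79b had a difference of 0.36 (SE 0.06, adjusted p = 0.0118), which was called under 3 of the 8 treatments, was 0.02 at its lowest and did not pass without negative replicate 1 (0.0518) or 2 (0.0759).

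The kinases and adaptors of pre-B cell receptor signalling did not shift together with Blnk and the Vpreb genes. Of the list of 20, Igll1 and the kinase Blk were well above background on no array. Of the 14 tested genes outside the 10, 4 were higher, 2 lower and 8 did not pass, with a median of 0.12. None of the 4 higher genes (Cd79b, Vav3, Cd24a and Vav1) was called under all 8 treatments, and Vav3, Cd24a and Vav1 changed sign under 1 or more. Bank1 (-0.43, SE 0.06, limma adjusted p = 0.00688), a B cell scaffold protein, and Prkcb (-0.38, SE 0.07, adjusted p = 0.0126), the beta form of protein kinase C, were lower. Bank1 was called under 7 of the 8 treatments, was -0.04 at its weakest and did not pass without negative replicate 2 (adjusted p = 0.0542), and Prkcb was called under all 8 but not without negative replicate 1 (0.0685) or 2 (0.0783). Syk (-0.04), the first kinase of the cascade, and Btk (-0.01), the kinase that Blnk recruits, did not pass.

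Jchain, which encodes the joining chain of secreted antibodies, had the largest difference of the 10 under the main scaling. Its log2 signal was -3.74 and -3.58 on the negative arrays and -1.01 and -0.995 on the positive arrays, and the groups did not overlap. The difference was 2.65 (SE 0.08) or 6.30-fold (limma adjusted p = 0.000987), and Jchain ranked 56 of all genes tested. With normexp background correction, which adds an offset to dim signals, it was 1.57, below Il7r (2.06) and Blnk (1.62). The processed signals of Jchain were 32.8 and 45.5 on the negative arrays, as dim as Rag1, and 158 and 208 on the positive arrays. Probes well above background on no array had a median difference of 0.69 under the main scaling. The part of that shift in the value of Jchain was not tested.

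**Figure D3:**
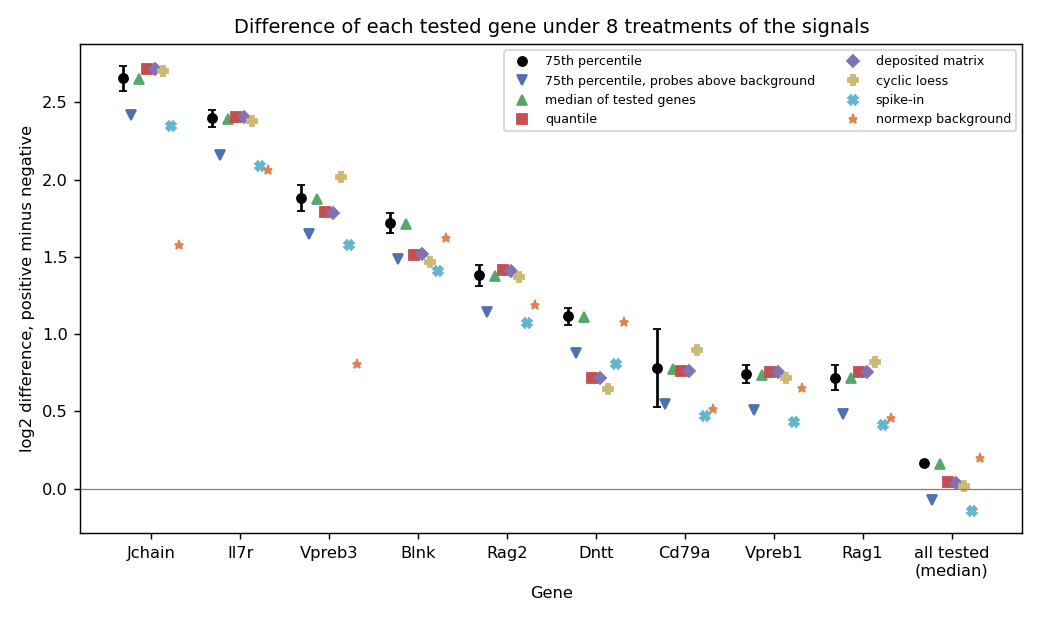
Log2 difference (positive minus negative) of the 9 tested genes under 8 treatments of the signals, with the median of all tested genes at the right. The black points are the reported values and their bars are 1 standard error, and every point of the 9 genes lies above 0 while the median of all genes runs from -0.14 to 0.20.

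The 8 genes that passed kept their direction and their call under all 8 treatments. Their lowest values were 0.41 for Rag1 and 0.43 for Vpreb1, both with spike-in scaling, where the median of all genes also fell, and 0.65 for Dntt with cyclic loess. Vpreb3 and Jchain moved most, to 0.80 and 1.57 with normexp. The median over the 9 tested genes was 1.38 against 0.16 for all genes, and 1.07 against -0.14 with spike-in scaling. Since 2 of the 9 were tested only because the positive group was bright enough, this median is a description.

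The transcription factors that drive the B lineage program were too dim to test or had differences between -0.52 and 0.48. Of a list of 17, Ebf1, Pou2af1, Spib, Lef1 and Irf4 were well above background on no array, and Pax5, the commitment factor of B cells, was so on 1 array of each group and was not tested. Among the 11 tested, 5 were higher, 1 was lower and 5 did not pass, with a median of 0.05. The 5 higher genes were Tcf3 (0.48), Runx1 (0.44), Ikzf1 (0.40), Bach2 (0.34) and Myb (0.31). A further probe of Ikzf1 and of Bach2 had 0.08 each (limma adjusted p = 0.4 and 0.795 in the fit of single probes). Further probes of Tcf3 and Runx1 had 0.55 and 0.62. None of these 5 calls held under all 8 treatments. Runx1 was called higher under 7, Tcf3 and Bach2 under 6 each, and Ikzf1 and Myb under 3 each. Myb turned negative under 3. Foxo1, a known activator of Il7r and of the Rag genes, fell by 0.52 (SE 0.08, limma adjusted p = 0.00815), also under all 8 treatments, but did not pass without negative replicate 1 (0.0551) or 2 (0.0548). Erg (-0.29), Ikzf3 (-0.07), Bcl11a (-0.00046), Sox4 (0.03) and Mef2c (0.05) did not pass. A further Erg probe had -0.28 (limma adjusted p = 0.0216 in the fit of single probes).

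Other genes known from early lymphoid progenitors split. Of 12 tested genes beside Jchain, 7 were higher and 4 lower, with a median of 0.27, and 4 of the list changed sign under some treatment. Ly6d, a surface marker of B-biased lymphoid progenitors and of plasmacytoid dendritic cell precursors, rose by 3.34 (SE 0.15, limma adjusted p = 0.00141). The chemokine receptor gene Ccr9 fell by 1.81 (SE 0.06, adjusted p = 0.00105), and the adaptor gene Lax1 fell by 1.58 (SE 0.06, adjusted p = 0.00115). Notch1 had -0.79 (SE 0.10, adjusted p = 0.00565) on its brighter probe and 0.63 (adjusted p = 0.00371 in the fit of single probes) on another, so no direction is given for it.

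**Figure D4:**
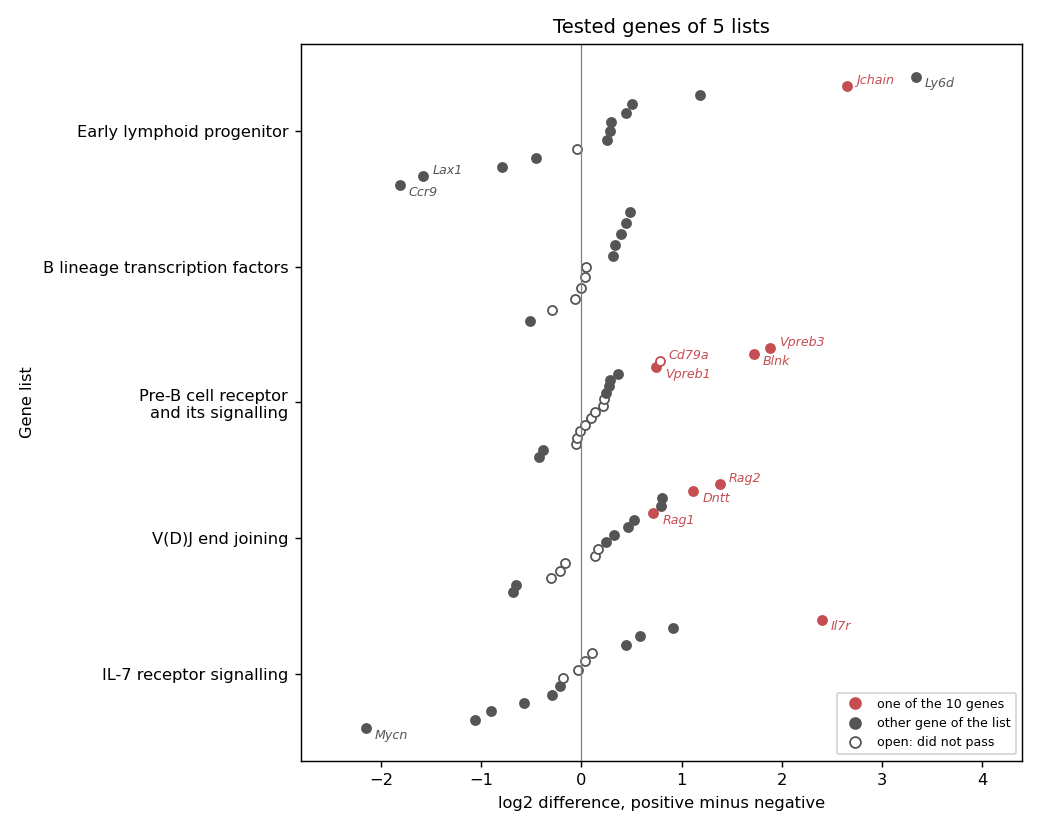
Log2 difference (positive minus negative) of each tested gene of 5 lists, with the 10 genes described here in red, other genes in grey and open circles for genes that did not pass. The red points lie toward the right end of each list that holds them, between 0.72 and 2.65, while the other genes of the IL-7 receptor list reach from -2.15 to 0.91.

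Some of the 10 genes are neighbours on the chromosome. In RefSeq order Rag1 and Rag2 on chromosome 2, Vpreb1 and Igll1 on chromosome 16, and Blnk and Dntt on chromosome 19 are adjacent, with 0 coding genes between them. The next tested genes beside the Blnk and Dntt pair and the Rag pair had small differences: Zfp518a beside Blnk had 0.14 (limma adjusted p = 0.182), Iftap beside Rag2 had 0.13 (adjusted p = 0.125) and Traf6 beside Rag1 had 0.35 (SE 0.09, adjusted p = 0.0329). Capsl, next to Il7r, fell by 1.11 (SE 0.09, adjusted p = 0.00225) while Il7r rose. Utp3, next to Jchain, had 0.53 (SE 0.08, adjusted p = 0.00754).

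By distance between centred profiles over the 4 arrays, the named genes nearest to Il7r were Mt1 (distance 0.0901), Ptpro (0.105), Cd300lb (0.123), Opn3 (0.144) and Lgals1 (0.156), with differences of 2.27 to 2.47. They encode a metallothionein, a receptor tyrosine phosphatase, a myeloid immune receptor, an opsin and a galectin. Within a distance of 0.5 of Il7r there were 35 genes. Among the 5 nearest to Dntt were Hspa4 (0.0055), Tacc3 (0.019), Crybg3 (0.023) and Rcc1 (0.029), with differences of 1.12 to 1.14. Tacc3 and Rcc1 are known for roles in the mitotic spindle and chromosome condensation. Within the same distance of Dntt there were 1696 genes, so 4 arrays place many genes on such a profile.

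Markers of other cell types were read on the same arrays, as summed level relative to the 75th percentile. Of 9 mature B and plasma cell markers on the array, Ms4a1 and Fcrla were well above background on no array, and 1 gene was higher and 4 lower of 7 tested (0 and 3 under all 8 treatments). Their summed level was 14.0 and 14.2 on the negative arrays and 10.3 and 10.5 on the positive arrays. Cd72 made up most of that sum, with log2 signals of 3.47 and 3.52 on the negative arrays and 2.96 and 2.99 on the positive arrays. The part of such cells in the differences of the 10 genes was not tested. Of 8 T cell markers 4, Cd3d, Cd3g, Cd8a and Bcl11b, were above background on no array, and of 4 tested Cd5 rose by 0.70 (SE 0.07, limma adjusted p = 0.00364) and Lck fell by 0.20 (SE 0.06, adjusted p = 0.04), both under all 8 treatments, with Lck not passing when any 1 array was left out (adjusted p = 0.104 to 0.189), while Cd3e (0.77, adjusted p = 0.137) and Cd4 (0.10) did not pass. Their sum was 23.5 to 23.9 against 22.3 to 23.0, and without Lck, which made up most of it, 4.54 to 5.43 against 5.99 to 6.64. Of 6 NK cell markers Ncr1 and Eomes were above background on no array, 3 of 3 tested were higher but 0 of them under all 8 treatments, and the sum was 33.0 to 34.3 against 38.8 to 38.9. Of 8 erythroid and megakaryocyte markers 6 of 7 tested were lower (5 under all 8 treatments), and the sum was 8.49 to 8.74 against 3.26 to 3.42.

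Plasmacytoid dendritic cells are known to express Irf8, Dntt and Rag genes, so each of their tested markers is given. Of 10 markers Klk1 and Spib were well above background on no array, and of 8 tested 4 were higher, 2 lower and 2 did not pass. Ly6d (3.34) and Cox6a2 (2.999, SE 0.06, limma adjusted p = 0.000802) rose under all 8 treatments, and Ccr9 fell. Bst2 (0.46, adjusted p = 0.026) and Tcf4 (0.37, adjusted p = 0.0215) were called higher under 3 treatments each. A further Tcf4 probe had -0.006 (adjusted p = 0.934 in the fit of single probes). Runx2 (-0.24, adjusted p = 0.0301) was called lower under 5, and Pacsin1 (0.30, adjusted p = 0.0647) did not pass. Without negative replicate 1, Bst2 (adjusted p = 0.101), Tcf4 (0.0853) and Runx2 (0.147) did not pass either. Siglech, their defining receptor, had a bright probe at -0.20 (adjusted p = 0.501) and a dim probe at 2.61 (adjusted p = 0.00215 in the fit of single probes), so its direction is not settled. The summed level was 147 to 192 for negative and 164 to 188 for positive LMPP, of which the bright Siglech probe made up 97.6 to 143 and 91.4 to 116. Without Siglech, left out after its values were seen, the sum was 49.0 to 49.3 against 71.5 to 72.2, higher in the positive group, and the part of such cells in the differences of Dntt, Rag1, Rag2, Jchain and the other genes was not tested. Of the genes of the sorting gate, Kit (-0.39) and Ly6a (-0.96) fell, Kit not passing without negative replicate 1 (adjusted p = 0.0515) or 2 (0.0597), Flt3 and Cd34 changed sign between scalings, and Slamf1, which encodes CD150, was well above background on no array.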

How the data were processed

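RNA of IRF8-GFP negative and positive LMPP (2 arrays each) was amplified with a low-input kit, labelled with Cy3 and hybridized to Agilent mouse arrays, per the labels' protocols. Per the file headers, signals came from Agilent Feature Extraction 10.7.3.1, and the deposited processed signal is an intensity that is background-subtracted and not normalized between arrays. The deposited value table holds intensity values that are the same on all 4 arrays when sorted (median 31.9). Its order matches the processed signals and its scale is linear; its centring is not stated in the sources read.

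Control spots and outlier spots (0.174% to 0.233% per array) were left out, spots of a probe averaged, log2 taken and the array's 75th percentile (signals of 318 to 543) subtracted. A probe was kept if at least 0.5 of its spots were well above background on both arrays of 1 or both groups, and a gene took its brightest kept probe, leaving 22362 genes and unnamed transcripts. Accessions were named through RefSeq for GRCm38.p6, which gave 26756 of 55669 probes a symbol; coordinates are those of that build, not of the array's design. limma 3.58.1 (lmFit, eBayes, two-sided) in R 4.3.3 was fitted on all 4 arrays and tested on simulated data. The number of arrays limits the precision.

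All 10 genes are named, with every gene of 3 pathway lists, up to 3 genes in each direction of the other lists, and the 5 nearest profiles to Il7r and Dntt. Syk, Btk, Cd79b, Vpreb2, the chromosomal neighbours and the marker genes were named beside them as context, after their values were seen. The 10 genes and the lists were chosen with earlier results of these data known. Alternatives tried were a block for exp 1 and exp 2, leaving out each array, normexp (offset 50, on median spot signals), quantile normalization, cyclic loess, spike-in scaling, centring on the tested genes or on probes above background, the deposited value table, other filters, an intensity trend, mean or single probes, and an adjusted p of 0.01. A few genes that the naming rule takes are not reported here.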

Additional observations from a re-analysis of the deposited data

How the results depend on the processing

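The 8 genes called higher kept direction and call under every alternative in which they were tested; Vpreb3 could not be tested when probes had to be well above background on all arrays, which left 7 called. Igll1 could be fitted only without a filter on dim probes, where it was called with a difference of 0.69 (limma adjusted p = 0.00519), the median of everything above background on no array. Cd79a was called with an intensity trend (adjusted p = 0.034), with normexp (0.52, adjusted p = 0.000918), without negative replicate 2 (1.12) and with the replicate block. The replicate block called 9 of the 10 genes and 13946 genes in all, and changed no other call of the 10. The numbers exp 1 and exp 2 are not said to pair the arrays, and same-numbered arrays' deviations correlated at 0.0971 across 22362 genes, which are not independent replicates. Genes called in all ranged from 7612 to 12774 when 1 array was left out and were 7861 at an adjusted p of 0.01, against 13390. Signal over background limits Rag1, Vpreb3 and Cd79a, whose processed signals were near or below the lowest that counted as well above background. It also limits Igll1, which lay below that level on all 4 arrays, and Jchain, which was as dim as Rag1 on the negative arrays.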
